A study of Mus musculus with 10 samples.

Results

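The genes described here encode the proteins of the cytosolic ribosome. They were taken by name, as every symbol of Rpl or Rps and a number with nothing after it but a, l, x, y or digits. The stalk protein genes Rplp0, Rplp1 and Rplp2 and the gene Rpsa were included. The rule found 86 of the 24453 gene symbols in the table, 53 of the large and 33 of the small ribosomal subunit. Of these, 71 reached a mean of 0.5 RPKM over the 10 libraries, among 11338 genes that did, and entered the tests (45 large, 26 small). RPKM is the number of reads scaled to transcript length and to the library's reads, so it compares genes per length, and it is a share of a library and not an amount of RNA per cell.

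RNA-seq was done on germinal vesicle oocytes, full-grown oocytes still in meiotic prophase, of C57Bl/6J mice, with 1 library for each pool of 16 oocytes from 1 mouse. The mutant group held 4 mice of genotype Setdb1 F/-; ZP3-cre, with a floxed and a deleted allele of the histone methyltransferase gene Setdb1 and a Cre transgene driven by the Zp3 promoter, which is active in growing oocytes. The controls were 4 mice of genotype Setdb1 F/+; ZP3-cre, called Cre controls here, which carry the same transgene and keep a wild-type allele, and 2 mice of genotype Setdb1 F/-, called F/- controls, which have the mutants' alleles without Cre. All groups share the floxed allele, and the labels give no age of the mice. Setdb1 itself was at 1.31 to 4.06 RPKM in the mutants and at 19.9 to 52.5 RPKM in the 6 controls, with no overlap (log2 difference -3.20, exact two-sided permutation p = 0.0095, the smallest that 210 splits allow). The 14 oocyte markers examined were all detected and summed to 6081 to 6277 RPKM in mutants and 6042 to 7899 RPKM in controls. Among them the limma test called Nobox higher in mutants than in all controls (log2 difference 0.42, limma adjusted p = 0.023). It called Kit (-0.81, limma adjusted p = 0.00084) and Dazl (-0.52, limma adjusted p = 0.025) lower. Of all tested genes 3.1% were called higher and 2.22% lower. Nobox, Kit and Dazl each passed against the Cre controls as well. Against the F/- controls Kit passed (limma adjusted p = 0.0065), and Nobox (0.18) and Dazl (0.098) did not.

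A ribosome is built from ribosomal RNA and mostly single copies of many different proteins, whose genes are among the most active in growing cells. Many of their mRNAs begin with a run of pyrimidines, the 5′ terminal oligopyrimidine or TOP motif, through which mTOR complex 1 and LARP1 control their translation. Growing mouse oocytes build up a large store of ribosomes, and full-grown oocytes, which are close to silent in transcription, draw on stored mRNA and protein. Ribosomal protein genes also have many processed pseudogenes, near-identical copies elsewhere in the genome, so that short reads often match several places.

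The listed levels of the 86 genes spanned a wide range although the proteins are needed in nearly equal numbers. Among the highest, the mean over the 10 libraries was 91.6 RPKM for Rpl4, a protein that lines the exit tunnel, 69.7 for the stalk protein gene Rplp1 and 67.3 for Rpl32. Rpl39 was at 48.8 and Rpl41, which encodes the shortest ribosomal protein, at 45.2. The median gene stood at 3.83 RPKM, 21 genes lay above 10 RPKM and 22 below 1.

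Several core proteins were close to the bottom. Rpl9 had a mean of 0.0397 RPKM, Rpl12 of 0.111, Rps27 of 0.151, Rpl24 of 0.157, Rps12 of 0.157 and Rps23 of 0.179 RPKM. Rps6, the small subunit protein that S6 kinase phosphorylates, was listed at 0.391 RPKM and Rpl19 at 0.404 RPKM, just under the minimum for testing, while Rpl21 at 0.594 and Rpl27 at 0.641 RPKM were just above it. In all, 15 genes stayed below that minimum, 7 of the small and 8 of the large subunit. The muscle-specific Rpl3l was the only member listed at 0 in every library, and 77 members had a value above 0 in all 10.

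The sequence that these genes share with other loci was measured, since no source used here says how reads with several matches were counted. For each gene the share of 50-base stretches of its GENCODE transcript that occur at no other annotated locus was counted. The median share was 54.3% over the 86 members, with a range of 6.68% to 100%, against a median of 100% over 11283 tested genes. Within the coding part the members' median was 11.1% (83 genes), and the median member shared at least 1 stretch with 9 other loci.

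Listed level went with unshared sequence among the members. The 18 genes with at most 25% of their sequence unshared had a median of 1.03 RPKM and 8 of them were below 0.5 RPKM. The 21 genes between 25% and 50% had a median of 3.68 RPKM, the 31 genes between 50% and 75% one of 7.15 RPKM, and the 16 genes above 75% one of 9.60 RPKM with only the muscle gene Rpl3l below 0.5 RPKM. Across genes, Spearman's rho between this share and the mean RPKM was 0.42 (86 genes), or 0.60 with the share in the coding part (83 genes), and -0.02 across the 11283 tested genes. Genes in one library share its depth and are not independent replicates, so these are descriptions. Rpl9 and Rpl10, with 6.68% and 7.87% of their sequence unshared, were listed at 0.0397 and 0.266 RPKM. Rpl39l, which shares no stretch with any other locus, was at 28.7 RPKM. There were exceptions: Rplp1 was among the 6 highest genes with 40.0% unshared, and Rpl12, with 51.0%, was at 0.111 RPKM. The part that counting of shared reads has in these levels was not tested, and levels between members are uncertain for that reason.

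**Figure D1:**
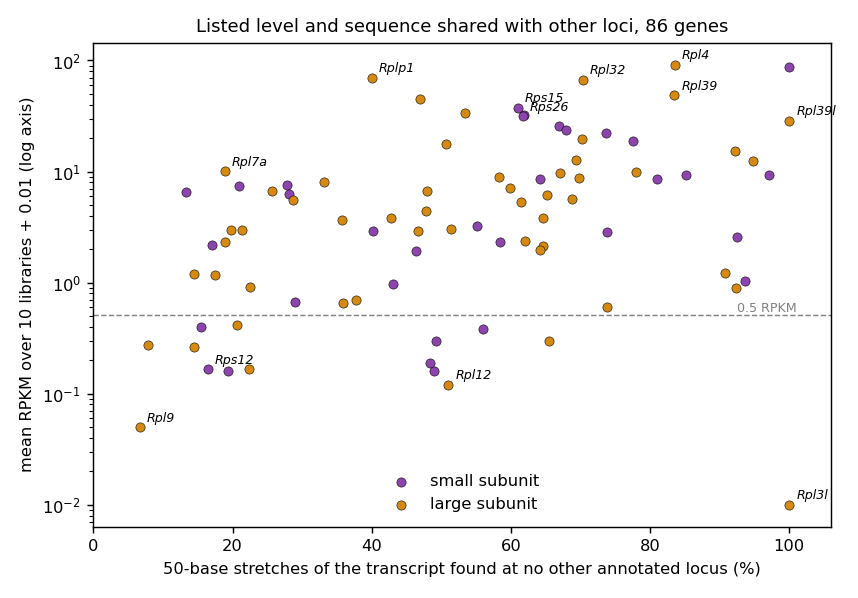
Mean RPKM over the 10 libraries, plus 0.01 so that a gene at 0 can be drawn on the log axis, against the percent of 50-base stretches of the transcript found at no other annotated locus, 1 point per gene, purple for the 33 small and orange for the 53 large subunit genes. The dashed line marks the minimum of 0.5 RPKM for testing; genes with little unshared sequence lie low more often than genes with much (Spearman's rho 0.42 over 86 genes).

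Copies outside the name rule held reads as well, and 3 of them are named here after their values were seen. Rpl37rt, a retrotransposed copy of Rpl37, was at 115 ± 7.71 RPKM in mutants and 88.9 ± 23.0 RPKM in controls (SD, n = 4 and 6), far above Rpl37 itself at 6.64 RPKM in mutants and 4.92 RPKM in controls. Rpl14-ps1 stood at 37.2 RPKM in mutants and 35.1 RPKM in controls, while Rpl14 was at 20.2 RPKM in mutants and 16.3 RPKM in controls. Rplp2-ps1 had 21.1 ± 3.52 RPKM in mutants and 13.9 ± 2.08 RPKM in controls (limma adjusted p = 0.052). Among the members, Rps4l and Rpl32l are annotated as pseudogenes in GENCODE.

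Transcripts of ribosomal proteins were, gene for gene, somewhat higher in mutant oocytes than in controls, and few of the single differences passed the test. Of the 71 tested genes, 63 had a positive log2 difference between mutants and all 6 controls (88.7%, against 52.7% of all 11338 tested genes). Their median difference was 0.43 on the log2(RPKM + 0.5) scale, against 0.03 over all tested genes, with quartiles of 0.22 and 0.56 and a range of -1.15 to 0.95. The limma test at an adjusted p of 0.05 called 4 genes higher, Rpl32, Rps15, Rps26 and Rpl39l, where 3.1% of all tested genes were called higher. It called 0 lower, where 2.22% of all tested genes were called lower. At an unadjusted p below 0.05 it found 26 members (36.6%) and 2242 of all tested genes (19.8%). That a larger share of the RPKM fell on these genes does not tell more transcript per oocyte from less of other transcripts.

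The libraries themselves show how far this reaches. The median log2(RPKM + 0.5) over the 71 genes was 3.08, 2.92, 3.06 and 2.79 in mutant replicates 1 to 4, against 2.56, 2.54, 2.70 and 2.42 in the 4 Cre controls and 2.94 and 2.30 in the 2 F/- controls. All 4 mutants lay above all 4 Cre controls, and F/- replicate 1 lay among the mutants while F/- replicate 2 was the lowest of all libraries. The sum over all 86 genes, tested or not, was 1156, 1162, 1154 and 1093 RPKM in mutants, 750, 788, 966 and 792 RPKM in Cre controls, and 1099 and 744 RPKM in F/- controls. Cre control replicate 3, the highest of its group, exceeded the median of the other 3 in 49 of the 71 genes. That count was not made over all tested genes. Above the median of the 6 controls lay 64, 54, 62 and 57 of the 71 genes in the mutants, 19, 28, 50 and 31 in the Cre controls, and 51 and 34 in the F/- controls. Over all tested genes the shares above it were 54.9%, 47.9%, 54.3% and 49.6% in mutants. They were 51.7%, 54.3%, 55.4% and 46.4% in Cre controls, and 49.2% and 42.75% in F/- controls.

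The 2 F/- libraries also differ in depth. The spacing of low values put F/- replicate 1 at 45.7e6 reads, the shallowest library, and F/- replicate 2 at 72.5e6, the deepest, with the other 8 between. F/- replicate 1 was above replicate 2 in 52 of the 71 members, against 55.0% of all tested genes. F/- replicate 1 reached or exceeded the lowest mutant in 48 members and F/- replicate 2 did so in 24. These overlaps were not counted over all tested genes. Without F/- replicate 1 the test called 8 members higher in mutants than in the remaining controls (11.3%, against 3.47% of all tested genes), and without Cre control replicate 3 it called 7 (9.86%, against 2.71%). These are the 2 controls with the highest sums over the members, so leaving either out lowers the level of the controls. With any other library left out it called 2 to 4 (2.82% to 5.63%, against 2.1% to 3.87%). Whether depth has a part in these values was not tested.

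**Figure D2:**
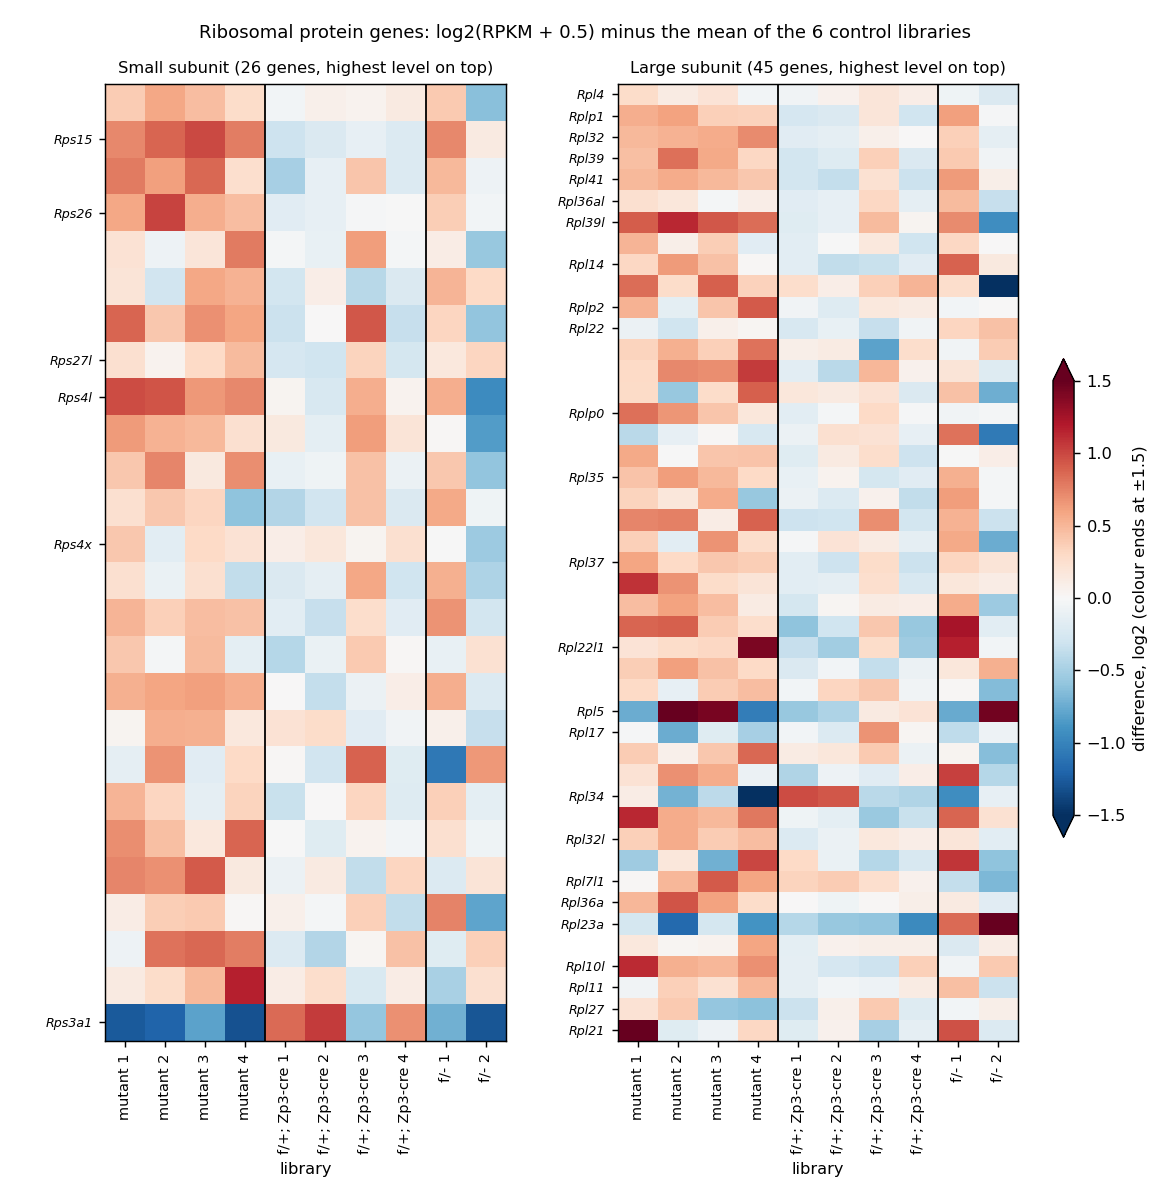
Difference of log2(RPKM + 0.5) in each library from the mean of the 6 controls, for the 26 small and 45 large subunit genes tested, ordered by mean level with the highest on top and labelled where the gene is named in the text; red is higher and blue lower, and the columns run from the 4 mutants through the 4 F/+; ZP3-cre controls to the 2 F/- controls. The 4 mutant columns have 54 to 64 of the 71 genes above the control median, F/- replicate 1 and Cre control replicate 3 have 51 and 50, and the other 4 controls 19 to 34. Over all tested genes the shares above it are 47.9% to 54.9% in mutants and 42.75% to 55.4% in controls.

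Other short transcripts and the mitochondrial ribosome moved in the same direction by less. The 1176 other tested genes with transcripts under 1000 bases had a median log2 difference of 0.16, and their library medians averaged 2.39 ± 0.06 in mutants and 2.18 ± 0.10 in controls. With the dependence on length and GC content taken out, limma left 3 of the 4 calls, Rpl32, Rps15 and Rpl39l (4.23%, against 2.71% of all tested genes). The 75 tested mitochondrial ribosomal protein genes had a median of 0.21, with 3 called higher and 0 lower. The summed levels of somatic cell markers overlapped between the groups. The 14 granulosa markers summed to 78.1 to 112 RPKM in mutants and 76.1 to 104 RPKM in controls, with 7 below 0.5 RPKM and Ptx3 at 0 everywhere. Most of that sum was Serpine2, with a mean of 65.6 RPKM over the 10 libraries, followed by Nr5a2 at 12.9 and Cyp19a1 at 7.23 RPKM. The 9 theca and stroma markers summed to 0.948 to 3.91 RPKM in mutants and 0.969 to 3.35 RPKM in controls, with Cyp17a1, Lhcgr and Col3a1 at 0. Hsd3b1 was the highest of these, at a mean of 1.53 RPKM. The 10 blood, immune and endothelial markers summed to 22.1 to 42.9 RPKM in mutants and 29.9 to 46.8 RPKM in controls, with Hba-a1, Hbb-bs and Cdh5 at 0. Pecam1 and C1qb were the highest of that list, at means of 17.6 and 13.8 RPKM, so the lists hold detected genes as well. The part of these in the ribosomal protein differences was not tested.

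Rpl32 encodes a protein of the large subunit and lies on chromosome 6 (GRCm38, 115805505 to 115808747, minus strand). It had 78.5, 80.8, 82.8 and 92.1 RPKM in mutants, against 49.6, 50.8, 59.1 and 56.4 RPKM in Cre controls and 72.2 and 50.9 RPKM in F/- controls. Every mutant exceeded every control. The log2 difference was 0.57 ± 0.12 (SE; 95% interval 0.32 to 0.82; limma adjusted p = 0.012). It passed in 22 of 23 alternative settings.

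Rps15 encodes a protein of the head of the small subunit whose tail reaches the decoding centre, and lies on chromosome 10 (80292453 to 80294114, plus strand). Its values were 46.2, 51.6, 55.8 and 47.6 RPKM in mutants, 22.3, 23.9, 25.6 and 24.2 RPKM in Cre controls, and 46.3 and 30.8 RPKM in F/- controls. The Cre controls lay close together and far below the mutants, and F/- replicate 1 was at the level of the lowest mutant. The log2 difference was 0.84 ± 0.18 (SE) against all controls (limma adjusted p = 0.016). The call ended without a filter on low values (limma adjusted p = 0.096) and without mutant replicate 3 (0.79, limma adjusted p = 0.051).

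Rps26 encodes a protein at the mRNA exit of the small subunit, where the yeast protein contacts the bases before the start codon. The gene lies on chromosome 10 (128624534 to 128626747, minus strand). It had 38.1, 51.2, 36.9 and 35.0 RPKM in mutants, 22.3, 23.1, 24.8 and 25.0 RPKM in Cre controls, and 32.7 and 24.6 RPKM in F/- controls. All mutants were above all controls, by little over F/- replicate 1, and the log2 difference was 0.65 ± 0.14 (SE; limma adjusted p = 0.018). The call ended without a filter on low values (limma adjusted p = 0.058) and with the dependence on length and GC content taken out (0.55, limma adjusted p = 0.056).

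Rpl39l is the paralog of the exit tunnel protein gene Rpl39, best known from male germ cells, and lies on chromosome 16 (10170226 to 10174911, plus strand). Its values were 38.1, 44.6, 39.0 and 36.3 RPKM in mutants, 17.8, 18.4, 28.3 and 20.8 RPKM in Cre controls, and 33.3 and 10.3 RPKM in F/- controls. No control reached a mutant, but the 2 F/- controls were the highest and the lowest of the 6. The log2 difference, 0.95 ± 0.25 (SE; limma adjusted p = 0.041), was the largest of the 71. It passed in 12 of 23 alternative settings, with an adjusted p of up to 0.19, and each mutant and each of Cre control replicates 1, 2 and 4, left out alone, took it past 0.05 (0.075 to 0.11).

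**Figure D3:**
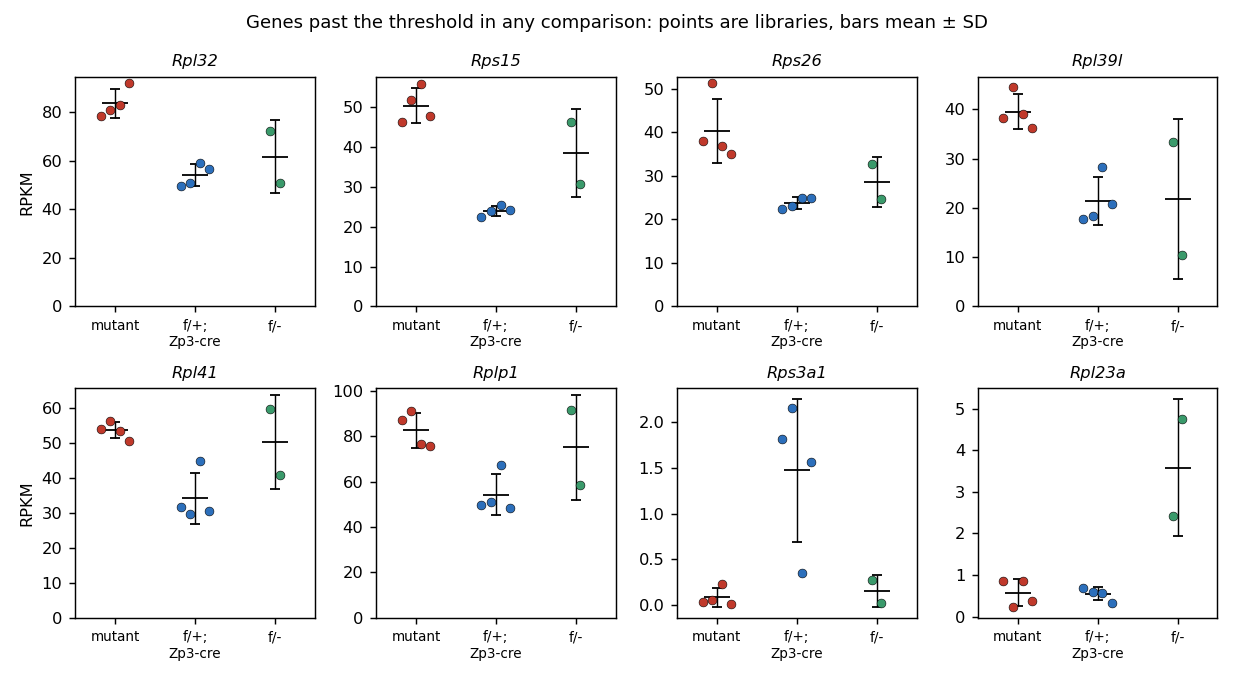
RPKM in each library, 1 point per library, for the 8 ribosomal protein genes past the adjusted p threshold in any comparison, with mean and SD per group; groups run from mutants (n = 4) to F/+; ZP3-cre (n = 4) and F/- controls (n = 2), and every y axis has its own range that takes in 0. For Rpl32, Rps26 and Rpl39l every mutant point lies above every control point, and for Rps15 1 F/- point reaches the lowest mutant.

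In 7 of the 71 genes all 4 mutants exceeded all 6 controls (4.62% of all tested genes did so), and in 0 all mutants were below all controls (3.56%). Besides Rpl32, Rps26 and Rpl39l these were Rps4l, Rpl10l, Rpl36a and Rpl32l, which did not pass the adjusted test. Rps4l had 12.4 ± 1.43 RPKM in mutants against 7.18 ± 2.63 in controls (log2 difference 0.82 ± 0.26 SE, limma adjusted p = 0.093). Rpl10l, an intronless relative of the X-linked Rpl10 that substitutes for it in male meiosis, had 1.31 ± 0.38 RPKM in mutants against 0.610 ± 0.24 in controls (0.71 ± 0.29 SE, limma adjusted p = 0.19).

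The genes with the most negative differences were low ones with a wide spread. Rps3a1 had a log2 difference of -1.15 (limma adjusted p = 0.18), Rpl34 of -0.73 (0.41), Rpl23a of -0.65 (0.51) and Rpl17 of -0.36 (0.50). The range over the 6 controls was widest in Rpl23a, Rps3a1 and Rpl5. Rpl5, which with Rpl11 carries the 5S ribosomal RNA and binds MDM2, was at 0.558, 15.4, 4.27 and 0.363 RPKM in mutants, 0.701, 0.789, 1.45 and 1.54 RPKM in Cre controls, and 0.550 and 4.35 RPKM in F/- controls. Its log2 difference of 0.70 had a standard error of 0.71. Rpl11 was at 0.813 ± 0.21 RPKM in mutants against 0.605 ± 0.21 in controls (limma adjusted p = 0.66).

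The stalk of the large subunit, which recruits the elongation factors, is formed by Rplp0 with Rplp1 and Rplp2. Rplp0 had 11.0 ± 2.23 RPKM in mutants against 7.48 ± 0.91 in controls (log2 difference 0.52, limma adjusted p = 0.12). Rplp1 had 82.5 ± 7.58 RPKM in mutants against 61.1 ± 16.5 in controls (0.46, limma adjusted p = 0.13), and Rplp2 had 15.5 ± 4.66 RPKM in mutants against 11.0 ± 1.0 in controls (0.43, limma adjusted p = 0.23). None of the 3 passed the adjusted test against all controls.

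Both subunits had more positive than negative differences, and the difference between the subunits was not tested. Against all controls the median log2 difference was 0.43 for the 26 small subunit genes, of which 25 were positive and 2 were called, and 0.43 for the 45 large subunit genes, of which 38 were positive and 2 were called. Per library, the summed RPKM of the large subunit was 1.56 to 1.66 times that of the small subunit in mutants and 1.63 to 1.83 times in controls, so the ranges overlapped. The per-library median of the small subunit minus that of the large was 0.17 ± 0.21 log2 in mutants and 0.37 ± 0.22 in controls (SD, n = 4 and 6), a gap of -0.21 that is of the size of the spread. The gap was -0.32 from the Cre controls, at 0.49 ± 0.13 (SD, n = 4), and 0.031 from the F/- controls.

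Against the 4 Cre controls alone the question is what Setdb1 loss adds where Cre is present in both groups. Of the 71 genes, 65 had a positive log2 difference, with a median of 0.44 against 0.00 over all tested genes. The test called 5 higher, Rps15, Rpl32, Rps26, Rpl41 and Rplp1, where 2.76% of all tested genes were called higher. It called 1 lower, Rps3a1, where 2.13% were called lower, and that gene reached the minimum for testing only through the Cre controls. In 20 genes all mutants exceeded all Cre controls (8.86% of all tested genes), and in 1, again Rps3a1, all were below (8.45%).

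Rps15 had the smallest p of the members here, with a log2 difference of 1.05 ± 0.14 (SE; limma adjusted p = 0.00072). Rpl41 had 54.0, 56.3, 53.6 and 50.7 RPKM in mutants and 31.6, 29.6, 44.9 and 30.5 RPKM in Cre controls, a log2 difference of 0.66 ± 0.16 (SE; limma adjusted p = 0.030). Rplp1 had 86.9, 90.9, 76.4 and 75.8 RPKM in mutants and 49.7, 51.1, 67.5 and 48.4 RPKM in Cre controls (0.61 ± 0.15 SE; limma adjusted p = 0.038). In both genes the groups did not overlap, Cre control replicate 3 came nearest to the mutants, and F/- replicate 1, at 59.8 RPKM for Rpl41 and 91.5 RPKM for Rplp1, was above every mutant. Each mutant and each of Cre control replicates 1, 2 and 4, left out alone, ended the call of both genes (largest limma adjusted p 0.11 for Rpl41 and 0.13 for Rplp1). Both calls also ended without a filter on low values (limma adjusted p = 0.10 and 0.14) and without the empirical Bayes trend. That of Rplp1 ended too with quantile normalization, the length and GC trend removed and the replicate block. Of 22 alternative settings Rpl41 passed in 13 and Rplp1 in 10. Leaving out Cre control replicate 1 or 2 ended the calls of Rpl32 and Rps26 as well, at up to 0.053 and 0.057. It left 1 call, Rps15 (1.41%, against 1.52% and 1.41% of all tested genes). With either F/- library left out, 12 members were called higher (16.9%, against 4.52% of all tested genes).

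Rps3a1, which encodes a protein at the mRNA exit of the small subunit, was listed low in mutants and F/- controls. It had 0.0346, 0.0566, 0.233 and 0.0181 RPKM in mutants and 1.81, 2.15, 0.356 and 1.57 RPKM in Cre controls, with 0.277 and 0.0292 RPKM in F/- controls. The mutants overlapped with the F/- controls and mostly lie at few reads, since 10 reads on a transcript of 2 kb make 0.109 RPKM in the shallowest library. The mean over all libraries, 0.654 RPKM, passed the minimum of 0.5 RPKM because the Cre controls averaged 1.47 RPKM, against 0.0856 RPKM in mutants and 0.153 RPKM in F/- controls. A gene that enters the test through 1 group has to differ from that group, so its log2 difference from the Cre controls, -1.65 ± 0.39 (SE; limma adjusted p = 0.032), is given as a description. Leaving out mutant replicate 1, 2 or 4 or Cre control replicate 1, 2 or 4 ended the call (limma adjusted p up to 0.12). In all, 29.0% of the transcript's sequence is unshared.

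Against the 2 F/- controls, which have the mutants' alleles without Cre, 57 of the 71 genes had a positive log2 difference, with a median of 0.35 against 0.07 over all tested genes. The test called 0 higher, where 3.25% of all tested genes were called higher, and at an unadjusted p below 0.05 it found 16 members (22.5%) and 2434 of all tested genes (21.5%), which is near the background. It called 1 lower, Rpl23a, where 1.59% were called lower. In 16 genes all mutants exceeded both F/- controls (13.7% of all tested genes), and in 2, Rpl22 and Rpl23a, all were below (9.18%). The subunits' medians were 0.44 for the small and 0.26 for the large. Without F/- replicate 1, the test called 8 members higher (11.3%, against 8.74% of all tested genes) and 1 lower (1.41%, against 4.2%), with 1 F/- library that is assumed to vary like the other groups.

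Rpl23a encodes a protein at the exit of the tunnel, where the signal recognition particle binds. It had 0.846, 0.223, 0.852 and 0.366 RPKM in mutants, 0.699, 0.591, 0.570 and 0.337 RPKM in Cre controls, and 2.41 and 4.75 RPKM in F/- controls. Mutants and Cre controls overlapped and both F/- controls lay above them. The log2 difference from the F/- controls was -1.92 ± 0.41 (SE; limma adjusted p = 0.023), or adjusted p = 0.11 without F/- replicate 2, and 17.4% of the sequence is unshared.

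Between the control genotypes most members were lower in Cre controls than in F/- controls, and the F/- libraries spanned more than the Cre controls. Cre controls against F/- controls gave a positive log2 difference in 28 of 71 genes (39.4%, against 56.2% of all tested genes). The median was -0.10 against 0.07 over all tested genes. By the members' library median, F/- replicate 1 (2.94) lay above all Cre controls (2.42 to 2.70) and F/- replicate 2 (2.30) below them. The test called 0 members higher and 0 lower, where 0.0265% and 0.0441% of all tested genes were called; at an unadjusted p below 0.05 it found 11 members (15.5%) and 1584 of all tested genes (14%). Without F/- replicate 1, which leaves a single F/- library assumed to vary like the other groups, it called 4 members higher (5.63%, against 4.82% of all tested genes) and 1 lower (1.41%, against 2.59%). The subunits' medians were -0.02 for the small and -0.14 for the large. These comparisons share libraries with those of the mutants.

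**Figure D4:**
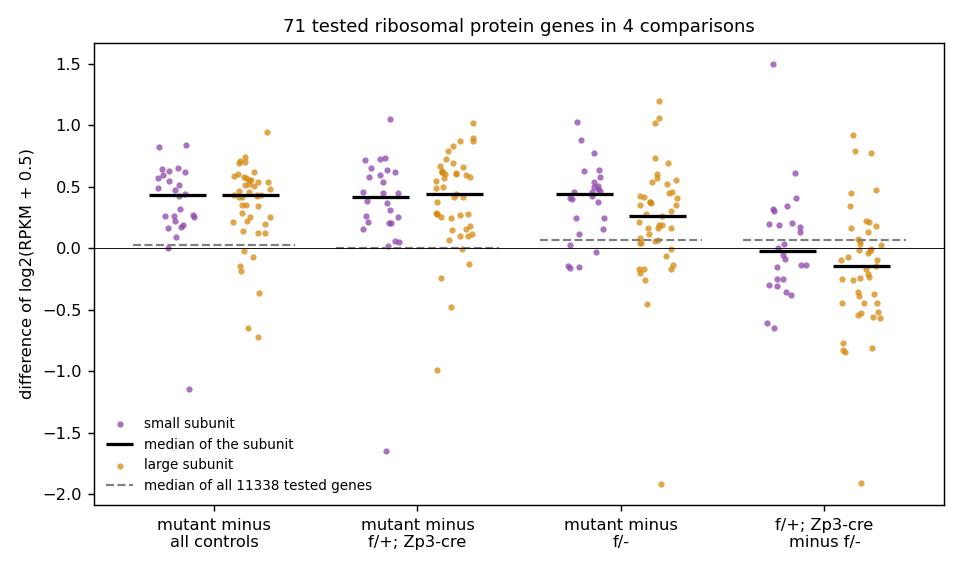
Difference of log2(RPKM + 0.5) for each of the 71 tested genes in 4 comparisons, the group named first minus the other, purple for 26 small and orange for 45 large subunit genes, with a thick line at each subunit's median and a dashed line at the median of all 11338 tested genes. In the 3 comparisons of mutants the subunit medians lie between 0.26 and 0.44, and between the control genotypes at -0.02 and -0.14.

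Paralogs were compared as a share of the pair in each library. Rpl39 and Rpl39l are shown because both are abundant here and no 50-base stretch of their coding sequences is the same in both. Rpl39 does share stretches with 9 other loci, and 13.5% of its coding stretches are unshared, against 100% for Rpl39l. The part of shared reads in the share of this pair was not tested. Rpl39 and Rpl39l each code for 51 amino acids over 153 bases, with 23 differences (85.0% identity), and the longest stretch without a difference is 38 bases. Capitals mark the bases that differ between them, in the GENCODE M21 coding sequences on chromosome X and chromosome 16.
Rpl39: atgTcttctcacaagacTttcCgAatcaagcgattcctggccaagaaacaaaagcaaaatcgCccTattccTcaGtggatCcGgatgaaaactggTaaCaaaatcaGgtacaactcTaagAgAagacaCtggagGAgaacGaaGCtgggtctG
Rpl39l: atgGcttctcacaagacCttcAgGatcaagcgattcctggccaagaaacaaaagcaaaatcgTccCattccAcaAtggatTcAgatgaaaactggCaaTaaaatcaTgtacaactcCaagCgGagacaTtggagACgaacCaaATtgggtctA

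Rpl39l made up 40.7%, 38.1%, 39.3% and 41.7% of the summed RPKM of the pair in mutants, 34.8%, 34.2%, 35.2% and 37.2% in Cre controls, and 38.5% and 20.96% in F/- controls. The mutants lay above the Cre controls, and F/- replicate 1 lay among the mutants. Rpl39 itself was at 55.7, 72.6, 60.4 and 50.7 RPKM in mutants, against 33.4, 35.5, 52.1 and 35.0 RPKM in Cre controls and 53.4 and 39.0 RPKM in F/- controls (log2 difference from all controls 0.54 ± 0.16 SE, limma adjusted p = 0.068). The log2 ratio of Rpl39l to Rpl39 was higher by 0.41 in mutants than in all controls (exact two-sided permutation p = 0.019, adjusted p = 0.071 over 5 pairs). The difference was 0.24 without F/- replicate 2 (adjusted exact p = 0.12) and 0.27 with the Cre controls alone (adjusted exact p = 0.14).

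The 4 other testable pairs gave no adjusted p below the threshold either. Rps4l made up 60.2% ± 5.53 of Rps4x and Rps4l in mutants and 48.8% ± 7.90 in controls (log2 ratio difference 0.63, adjusted exact p = 0.11). Rpl22l1, which Rpl22 protein is known to repress, made up 27.7% ± 8.49 of its pair in mutants and 19.4% ± 7.72 in controls (0.63, adjusted exact p = 0.14), or 0.37 without mutant replicate 4 (adjusted exact p = 0.36). Rpl36al held 95.6% ± 1.08 in mutants and 97.3% ± 0.42 in controls, with a log2 ratio difference of -0.46 (adjusted exact p = 0.071), and Rpl36a has 14.5% of its sequence unshared. Rpl7l1 made up 32.3% ± 8.36 in mutants and 28.8% ± 12.7 in controls (0.17, adjusted exact p = 0.80). SDs are over 4 mutants and 6 controls.

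**Figure D5:**
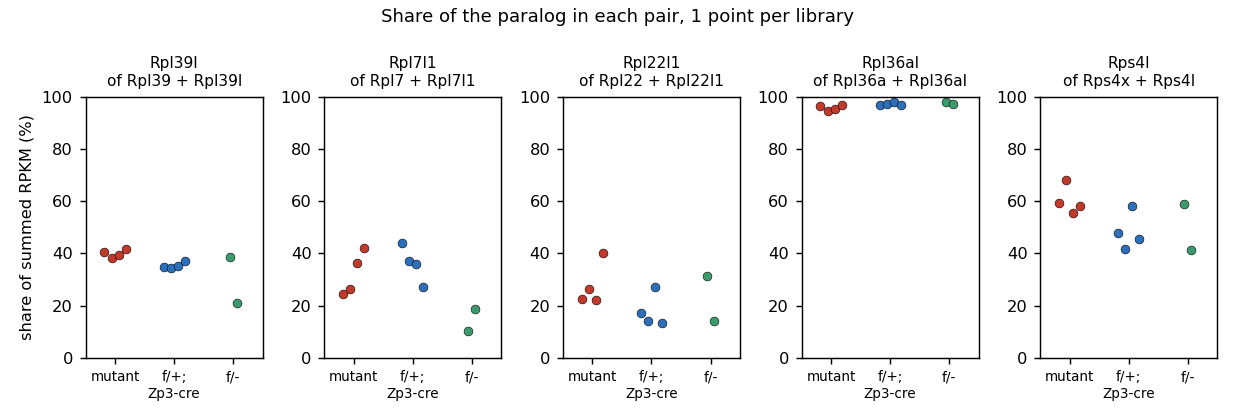
Share of the paralog in the summed RPKM of each of 5 pairs, in percent, 1 point per library, with the 4 mutants left of the 4 F/+; ZP3-cre and the 2 F/- controls. Rpl39l lies between 38.1% and 41.7% in mutants and between 20.96% and 38.5% in controls, and Rpl36al holds over 90% of its pair in every library.

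In 3 pairs the main gene was below 0.5 RPKM and no ratio was tested. Rps27l, a paralog known as a p53 target, was at 20.8 ± 2.52 RPKM in mutants against 17.5 ± 3.77 in controls, while Rps27 was listed at 0.151 RPKM on average. Rpl10l was above Rpl10, which had 0.321 ± 0.20 RPKM in mutants against 0.229 ± 0.09 in controls, and Rpl10 shares all but 7.87% of its sequence with other loci. Rpl3 was listed at 0.256 RPKM with 14.4% unshared.

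The promoters of the members held known motifs of ribosomal protein genes more often than promoters at large. RefSeq promoters of GRCm38.p6, from 250 bases before to 50 after the start, were found for 65 members, 77 promoters in all. A C followed by at least 4 further C or T, starting within 5 bases of the start, on the gene's strand, stood in 32 of them (41.6%), against 18.3% of 32851 promoters. On either strand, ACTTCCG, the core of the ETS family motif, stood in 29.9% against 6.42%, TCTCGCG in 19.5% against 2.56%, and TATAAA in 10.4% against 13.6%; a promoter can hold several. A match is a description of these letters and not evidence of a site.

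Windows of 30 bases, 15 of them before the RefSeq start, show the run, in capitals, for the called gene Rps26, for Rpl39 and, as a long example, for Rpl35. The RefSeq starts of Rps26, Rps15 and Rpl39l are not the 5′ ends of the GENCODE genes given above. The windows of the called genes Rps15 and Rpl39l, not printed here, hold no run by this rule. A run at another start would not be seen by it. The called gene Rpl32 has no window here. The printed windows lie on the gene's strand at chr10:128626492-128626521 (minus), chrX:37085208-37085237 (minus) and chr2:39005117-39005146 (minus).
Rps26: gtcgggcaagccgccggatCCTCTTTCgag
Rpl39: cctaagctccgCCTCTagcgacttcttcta
Rpl35: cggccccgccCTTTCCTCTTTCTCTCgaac

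Related gene lists had median differences between -0.11 and 0.28, against 0.43 for the members. Neither Rack1 nor Fau, genes for ribosomal proteins that the name rule leaves out, passed the test. Rack1, at 22.6 ± 3.74 RPKM in mutants against 18.5 ± 2.53 in controls, had a log2 difference of 0.28 (limma adjusted p = 0.34). Of 19 other mRNAs with a known TOP motif, 0 passed either way and the median log2 difference was 0.14. Naca, a subunit of the nascent chain complex, had 26.1 ± 1.06 RPKM in mutants against 19.0 ± 3.57 in controls (0.47, limma adjusted p = 0.093), and Eif3l and Pabpc1 had 0.52 and 0.53 (limma adjusted p = 0.10 and 0.18).

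Of 58 ribosome assembly factors, 1 rose and 0 fell, with a median log2 difference of 0.07. Rcl1, an endonuclease of small subunit assembly in yeast, had 17.5 ± 7.45 RPKM in mutants against 7.83 ± 0.76 in controls (1.03 ± 0.22 SE, limma adjusted p = 0.017). It passed against the Cre controls (limma adjusted p = 0.027) and not against the F/- controls (limma adjusted p = 0.11). Of 20 genes of RNA polymerase I and its factors, which make ribosomal RNA, 1 rose and 0 fell, with a median of 0.09. That gene was Ubtf, the factor that keeps ribosomal DNA open, at 6.07 ± 2.73 RPKM in mutants against 1.43 ± 0.46 in controls (1.69 ± 0.31 SE, limma adjusted p = 0.0061). Ubtf passed against the Cre controls and against the F/- controls (limma adjusted p = 0.019 and 0.025). Of 11 dedicated chaperones of ribosomal proteins 0 passed (median 0.02).

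Of 22 genes of mTOR complex 1 signalling and TOP control, 0 rose and 1 fell, with a median of 0.18. Rraga, a GTPase that brings the complex to the lysosome, was at 44.7 ± 6.70 RPKM in mutants against 67.3 ± 7.02 in controls (-0.59 ± 0.12 SE, limma adjusted p = 0.012), while Larp4 had -0.43 (limma adjusted p = 0.084). Rraga passed against the Cre controls (limma adjusted p = 0.0096) and not against the F/- controls (limma adjusted p = 0.11). Of 28 initiation and elongation factors 0 passed (median 0.10), with Eif5 at -0.38 (limma adjusted p = 0.071).

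Genes of ribosome quality control had a median of -0.11, and 2 of 15 fell and 0 rose. Pelo, which rescues stalled ribosomes, was at 0.539 ± 0.48 RPKM in mutants against 3.51 ± 1.47 in controls (-1.98 ± 0.37 SE, limma adjusted p = 0.0065). Ltn1, the ligase that marks nascent chains on stalled large subunits for decay, was at 1.86 ± 0.63 RPKM in mutants against 5.13 ± 1.58 in controls (-1.26 ± 0.27 SE, limma adjusted p = 0.016). Pelo and Ltn1 passed against the Cre controls (limma adjusted p = 0.019 and 0.043) and against the F/- controls (limma adjusted p = 0.0060 and 0.032). Of 12 transcription factors linked to ribosomal protein promoters 0 passed (median 0.17), with Tbpl2, the TATA-binding protein relative of oocytes, at 11.7 ± 0.84 RPKM in mutants against 8.07 ± 2.45 in controls (limma adjusted p = 0.15). Over the 183 tested genes of these lists, 2 were called higher (1.09%) and 3 lower (1.64%), against 3.1% and 2.22% of all tested genes.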

How the data were processed

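RNA-seq values of 10 libraries, each a pool of 16 oocytes of 1 mouse, were used as deposited. Per the labels' protocols, RNA was amplified to cDNA with the NuGen Ovation system and made into libraries with a TruSeq DNA kit. As tools and build, the submitters' processing notes list bcl2fastq 1.8.3, STAR and mm10. How reads were counted, and what was done with those that match several places, is not given in the sources used. The authors deposited RPKM per RefSeq transcript (34768 rows). Where several rows carried a symbol (13 members), the row with the highest mean stood for it. Read totals are not part of the table; the spacing of low values gave 45.7e6 to 72.5e6 reads per library, with 69.7% to 74.1% of low values within 0.1 of a whole number, an approximate fit.

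Genes averaging 0.5 RPKM or more were tested with limma 3.58.1 in R 4.3.3 on log2(RPKM + 0.5), with an empirical Bayes trend and Benjamini-Hochberg adjustment over all 11338 genes. The added 0.5 makes differences of low genes look smaller. Mutants were set against all 6 controls in a model with 2 levels, and the other comparisons came from a model with 3 groups. The fit was tested on simulated data with known changes in 200 genes. It recovered 52% of changes of 1 log2 and 87% of changes of 2 log2, and 12 of its 151 calls were wrong. Smaller changes were not simulated. Setdb1 and paralog ratios were tested with exact permutation tests in scipy 1.17.1. Replicates are separate mice. Replicate numbers were not taken to pair the mice. After each group's mean was subtracted from every gene, same-numbered libraries of different groups correlated by -0.05 to 0.03. Libraries with different numbers correlated by -0.08 to 0.08. This shows no sign of pairing and cannot exclude it.

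Named are the 4 genes given with the members (Rpl32, Rps15, Rps26, Rpl39l), members past the threshold, both genes of each paralog pair, the 6 highest and 6 lowest tested members, the 3 with the largest and smallest difference per subunit, the 3 with the widest control range, and up to 3 genes of each related list; further members are named for their role or level. A few genes that these rules name are not reported here. Members and lists were chosen with earlier results of these data known. Sequences and positions are from GENCODE M21 and RefSeq (GRCm38.p6). Alternatives covered pseudocount, scaling, filters, the handling of several rows, the spread estimate, library weights, threshold, control set, a replicate block and each library left out.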

Additional observations from a re-analysis of the deposited data

Results flagged for a closer look

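Of 120 groups of 4 or 6 values looked at, 21 held a library far from the rest of its group, by a gap test that chance meets in about 1 group in 20. In 6 genes Cre control replicate 3 was far above the other 3 Cre controls: Rpl36al at 39.9 RPKM (others 28.5 to 29.4), Rpl39 at 52.1 (33.4 to 35.5), Rpl41 at 44.9 (29.6 to 31.6), Rplp1 at 67.5 (48.4 to 51.1), Rps2 at 11.0 (5.71 to 6.50) and Rps27l at 21.7 (13.9 to 14.4). The same library was highest of the 6 controls for Rpl17 at 5.41 RPKM (others 2.33 to 3.26).

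F/- replicate 1 was far above the other 5 controls for Rps15 at 46.3 RPKM, Rps26 at 32.7, Rpl7 at 5.44, Rpl22l1 at 7.07 and Rpl21 at 1.04. F/- replicate 2 was the highest of the 6 controls for Rpl5 at 4.35 RPKM and Rps27 at 0.383, and the lowest for Rps4x at 4.69.

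In mutants, replicate 1 stood out for Rpl21 at 2.93 RPKM (others 0.201 to 0.487) and replicate 4 for Rpl22l1 at 8.51 (others 3.39 to 3.69) and for the sum over the 86 genes, 1093 RPKM (others 1154 to 1162). Rpl10a was lowest in Cre control replicate 1 at 0.686 RPKM (others 0.869 to 0.895). Setdb1 was highest in Cre control replicate 4 at 52.5 RPKM, among the Cre controls and among all 6 controls.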

How the results depend on the processing

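The positive median difference of the members and the direction of Rpl32, Rps15, Rps26 and Rpl39l held in every alternative run. Counts of calls moved. Percentages in brackets are shares of the members tested, then of all tested genes. Mutants against all controls had 4 higher and 0 lower. There was 1 higher without a filter on low values (1.16%, 0.904%) and there were 2 without the empirical Bayes trend (2.82%, 2.65%). Library weights gave 21 higher (29.6%, 7.12%) and 1 lower (1.41%, 5.12%). Cre controls alone gave 12 higher (16.9%, 4.53%) and 1 lower (1.41%, 3.48%). At a threshold of 0.1 there were 8 higher (11.3%, 4.95%). With 1 library left out there were 2 to 8 higher (2.82% to 11.3%, 2.1% to 3.87%). Against Cre controls (5 and 1) there were 3 higher without a filter (3.49%, 0.814%) and 3 without the trend (4.23%, 2.03%). Library weights gave the same 21 and 1, and a threshold of 0.1 gave 10 higher (14.1%, 4.42%). With 1 mutant or Cre control left out there were 1 to 7 higher (1.41% to 9.86%, 1.41% to 2.77%) and 0 to 1 lower (0% to 1.41%, 0.582% to 1.72%). There were 0 lower with quantile normalization, no filter and a minimum of 2 RPKM, where 3.04%, 0.818% and 2.18% of all tested genes were called lower. Against F/- controls (0 and 1) there was 1 higher without the trend (1.41%, 3.1%) and there were 3 at 0.1 (4.23%, 6.02%). Library weights gave 0 higher and 0 lower, where 0.406% and 0.0529% of all tested genes were called. The 21 calls with library weights are thus not calls against both control genotypes. There were also 0 lower without a filter and with a minimum of 2 RPKM, where 0.356% and 1.54% of all tested genes were called lower. With 1 mutant or Cre control left out there were 0 higher (0%, 1.75% to 3.66%) and 1 lower (1.41%, 0.697% to 1.82%). Between control genotypes (0 and 0) there was 1 lower with quantile normalization (1.41%, 0.0706%) and at 0.1 (1.41%, 0.238%). With 1 mutant or Cre control left out there were 0 either way, where at most 0.194% of all tested genes were called in each direction.

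The replicate block, with numbers not taken to pair the mice, left 3 higher (4.23%, 2.08%) and 0 lower (0%, 1.23%) against all controls. It left 4 higher (5.63%, 2.15%) and 0 lower (0%, 1.23%) against Cre controls. Against F/- controls it left 0 and 0, where 1.44% and 0.529% of all tested genes were called. Between controls it also left 0 and 0, where 0.00882% and 0% were called. The small minus large median difference was 0.031 with F/- controls alone. With a pseudocount of 0.1 RPKM the ratio of Rpl39l to Rpl39 (0.42) and of Rpl36al to Rpl36a (-0.64) passed. The ratio of Rpl7l1 to Rpl7 was -0.24 with Cre controls alone and -0.11 to 0.32 with 1 library left out, the negative values being without F/- replicate 1 and mutant replicate 4 (-0.0046).

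Some log2 differences against all controls that did not pass changed sign. Rpl22 was 0.11 with library weights, 0.12 with Cre controls alone and -0.14 to 0.015 with 1 library left out. Rpl23a (-0.65) was 0.10 with library weights and Rpl36al -0.0029 with the length and GC trend removed. With 1 library left out Rpl27 was -0.32 to 0.012, Rpl5 (0.70) -0.12 to 1.28, the lowest being without mutant replicate 2, Rps29 -0.014 to 0.32 and Rps2 -0.090 to 0.13. With that trend removed Rps29 was -0.066 and Rps2 -0.12. Rps2 was also -0.0031 with a pseudocount of 2 RPKM, -0.058 with median centring, -0.056 with quantile normalization and -0.0085 with the replicate block. The cause of these changes was not tested. Genes under about 0.1 RPKM rest on few reads.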
